A study of Homo sapiens with 8 samples.

Results

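The promoter regions described here belong to genes that restrain SMAD signalling: the SMAD corepressors SKI, SKIL and TGIF2, the ubiquitin ligases SMURF1 and SMURF2, and TMEPAI, the older symbol of PMEPA1. They were chosen by name alone, as every probe that was no control and whose gene name or transcript list held one of these symbols. This gave 153 probes of 6 genes among 474392 probes on the arrays, with 28 for SKI, 30 for SKIL, 27 for TGIF2, 21 for SMURF1, 7 for SMURF2 and 40 for TMEPAI. The symbols TGIF and PMEPA1 name no probe in the array annotation. TGIF1, for which RefSeq lists TGIF as a synonym, has 58 probes, which are described beside the members and are not counted among them. The scanner software marked 1 TMEPAI probe as an outlier, which left 152 member probes.

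The study asked where SMAD3 sits on human promoters with and without TGFβ1, using chromatin immunoprecipitation followed by promoter microarrays (ChIP-on-chip). The cells were A549, a line from a human lung adenocarcinoma that is commonly used as a model of the alveolar epithelium. There were 2 groups, unstimulated cells (basal level) and cells stimulated with 2 ng/ml TGFβ1 for up to 2 h according to the labels, with 2 biological replicates each. On every array, DNA from the SMAD3 immunoprecipitation (SMAD3 IP, Cy5) was hybridised against DNA from a mock immunoprecipitation (mock IP, Cy3). The labels give the mock IP as anti-FLAG in one place and as a control IgG in another. The study names anti-FLAG as its control IgG. Each replicate used 2 slides with different probes, which gave 8 arrays, and both DNAs had been amplified by PCR after linker ligation.

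SMAD3 is a transcription factor that TGFβ receptors phosphorylate and that then enters the nucleus together with SMAD4. SKI, SKIL and the TGIF proteins bind SMADs on chromatin and bring histone deacetylases to target genes, while SMURF1 and SMURF2 mark SMADs and receptors for degradation. PMEPA1 (TMEPAI) is a membrane protein that holds back SMAD phosphorylation, and several of these genes are known to be induced by TGFβ as negative feedback.

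The array annotation places SKI on chromosome 1, SKIL on 3, SMURF1 on 7, SMURF2 on 17, TGIF1 on 18, and TGIF2 and TMEPAI on 20. It labels 91 member probes as promoter and 62 as inside the gene. Positions are given as the distance to the annotated transcription start, with negative values upstream, because the array files and labels name no genome build. The study names hg17 for its genomic analyses. The probes spanned −4367 to 2561 bp for SKI, −5167 to 2410 bp for SKIL, −3704 to 2082 bp for TGIF2, −5132 to 2436 bp for SMURF1, −4786 to 1872 bp for SMURF2 and −6869 to 2620 bp for TMEPAI. TMEPAI has further annotated starts at −594 and −1510 bp, and its distances count from the start of the transcript that all of its probes list. The distances of TGIF1 likewise count from 1 reference start, and further annotated starts within the stretch covered by probes lie at −2564, −199, −141, 1419 and 3600 bp from it.

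The 250 bases upstream of the RefSeq start (GRCh38.p14) are shown for SKIL, SMURF1 and SMURF2, whose probes closest to the start are described below. Capitals mark the SMAD binding element CAGAC and the GC-rich SMAD motif GGCGC on either strand, and overlapping matches run together. The RefSeq start can differ from the start used by the array.
SKIL, chr3:170357465-170357714, plus strand: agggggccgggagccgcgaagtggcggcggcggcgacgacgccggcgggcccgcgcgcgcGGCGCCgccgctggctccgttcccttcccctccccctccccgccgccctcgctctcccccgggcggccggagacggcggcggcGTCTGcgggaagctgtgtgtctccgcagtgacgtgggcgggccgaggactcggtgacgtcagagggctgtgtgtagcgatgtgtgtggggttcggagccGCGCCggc
SMURF1, chr7:99144109-99144358, minus strand: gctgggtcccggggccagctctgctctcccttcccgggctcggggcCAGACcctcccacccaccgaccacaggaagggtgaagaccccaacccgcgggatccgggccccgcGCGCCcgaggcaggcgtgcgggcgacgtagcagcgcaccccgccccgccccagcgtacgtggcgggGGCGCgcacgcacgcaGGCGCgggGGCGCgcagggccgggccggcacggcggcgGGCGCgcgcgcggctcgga
SMURF2, chr17:64662308-64662557, minus strand: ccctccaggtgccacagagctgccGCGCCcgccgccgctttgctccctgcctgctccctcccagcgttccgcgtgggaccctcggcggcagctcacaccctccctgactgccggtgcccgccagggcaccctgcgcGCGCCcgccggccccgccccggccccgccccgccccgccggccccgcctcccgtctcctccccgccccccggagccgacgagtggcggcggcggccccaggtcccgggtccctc

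The SKIL promoter held 1 CAGAC and 3 GGCGC matches, that of SMURF1 held 1 and 5, and that of SMURF2 held 0 and 2. RefSeq promoters were found for 5 of the members, with 9 entries, and for TGIF1, with 7 entries. The member entries include alternative starts of PMEPA1 and overlapping windows of TGIF2, so the 9 are not all separate promoters. CAGAC occurred in 4 of the 9 member entries and in 38.0% of all 35116 promoters of that length, and GGCGC in 9 of 9 against 44.5%. The palindrome GTCTAGAC was in 0 of 9 entries and in 0.182% of all promoters, and the AP-1 motif TGANTCA in 0 of 9 and in 6.57%. The GC content was 78.4% for SKIL, 81.2% for SMURF1 and 82.0% for SMURF2, against a median of 58.0% over all promoters. These were the highest of the member entries. The others had 71.2% and 76.4% (TGIF2) and 63.2%, 55.6%, 76.8% and 56.8% (PMEPA1). These matches describe letters in a window, not binding.

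The main measure below is the log2 ratio of the SMAD3 IP signal over the mock IP signal, centred on the median of its array, so that 0 is the typical probe. A probe is called measured where both channels were well above background on all 4 arrays of its slide, which held for 160921 probes overall and for 81 of the 152 member probes. Over measured probes, the ratios of replicates of a condition correlated at r = 0.894 to 0.976 and those of different conditions at 0.294 to 0.340. The mock IP signal alone split in the same way, at 0.910 to 0.990 within and 0.599 to 0.635 between conditions. The share of probes with both channels well above background was 38.7% to 51.5% per array, and the number of arrays limits the precision. The labels call the replicates biological, but whether those of a condition shared chromatin or an amplification was not tested, so the p-values measure only the spread between these samples.

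Of the 152 member probes, 24 had a higher ratio after stimulation (15.8%, against 10.5% of all 472988 probes) and 23 a lower one (15.1%, against 12.4%), by limma at an adjusted p under 0.05 over all probes. With a normexp background correction these counts were 9 (1.71% of all probes) and 3 (2.83%), so calls dropped over the whole array, and with the replicate number as a block 24 and 16 (8.55% and 10% of all probes). Of the 81 measured member probes, 16 were higher (19.8%, against 23.2% of all measured probes) and 21 were lower (25.9%, against 30.7%). In the main setting the member probes thus lay slightly above the background share over all probes and slightly below it over measured probes. Their median change over measured probes was −0.06 on the log2 scale, against −0.18 for all measured probes. Below, p-values of single measured probes come from the fit over measured probes unless the fit over all probes is named. A probe can pass in one of these fits and not in the other. The counts of measured probes per gene below are to be read beside the same shares of all measured probes, 23.2% higher and 30.7% lower.

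Against the array median, 20 member probes were higher at the basal level (8.92% of all probes were called) and 41 were lower (17.4%). After stimulation, 24 were higher (8.22% of all probes) and 39 were lower (18.5%). The excess of lower over higher rests on the centring: without it, 45 were higher and 34 lower at the basal level (34.5% and 15.2% of all probes), and 69 and 34 after stimulation (46.7% and 15.2%). With normexp it was 1 and 7 at the basal level (0.607% and 0.936% of all probes). Of the measured member probes, 24 were above the median at the basal level (26.1% of all measured probes) and 33 below it (41.1%), and 27 were above it after stimulation (24.4%) and 31 below it (45.5%). There were 17 measured probes above the median in both conditions, which is 70.8% of the 24 and 63.0% of the 27, against 54.3% and 58.0% over all measured probes. They were 6 probes of SKI, 5 of TMEPAI, 4 of SKIL and 1 each of SMURF1 and TGIF2.

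**Figure D1:**
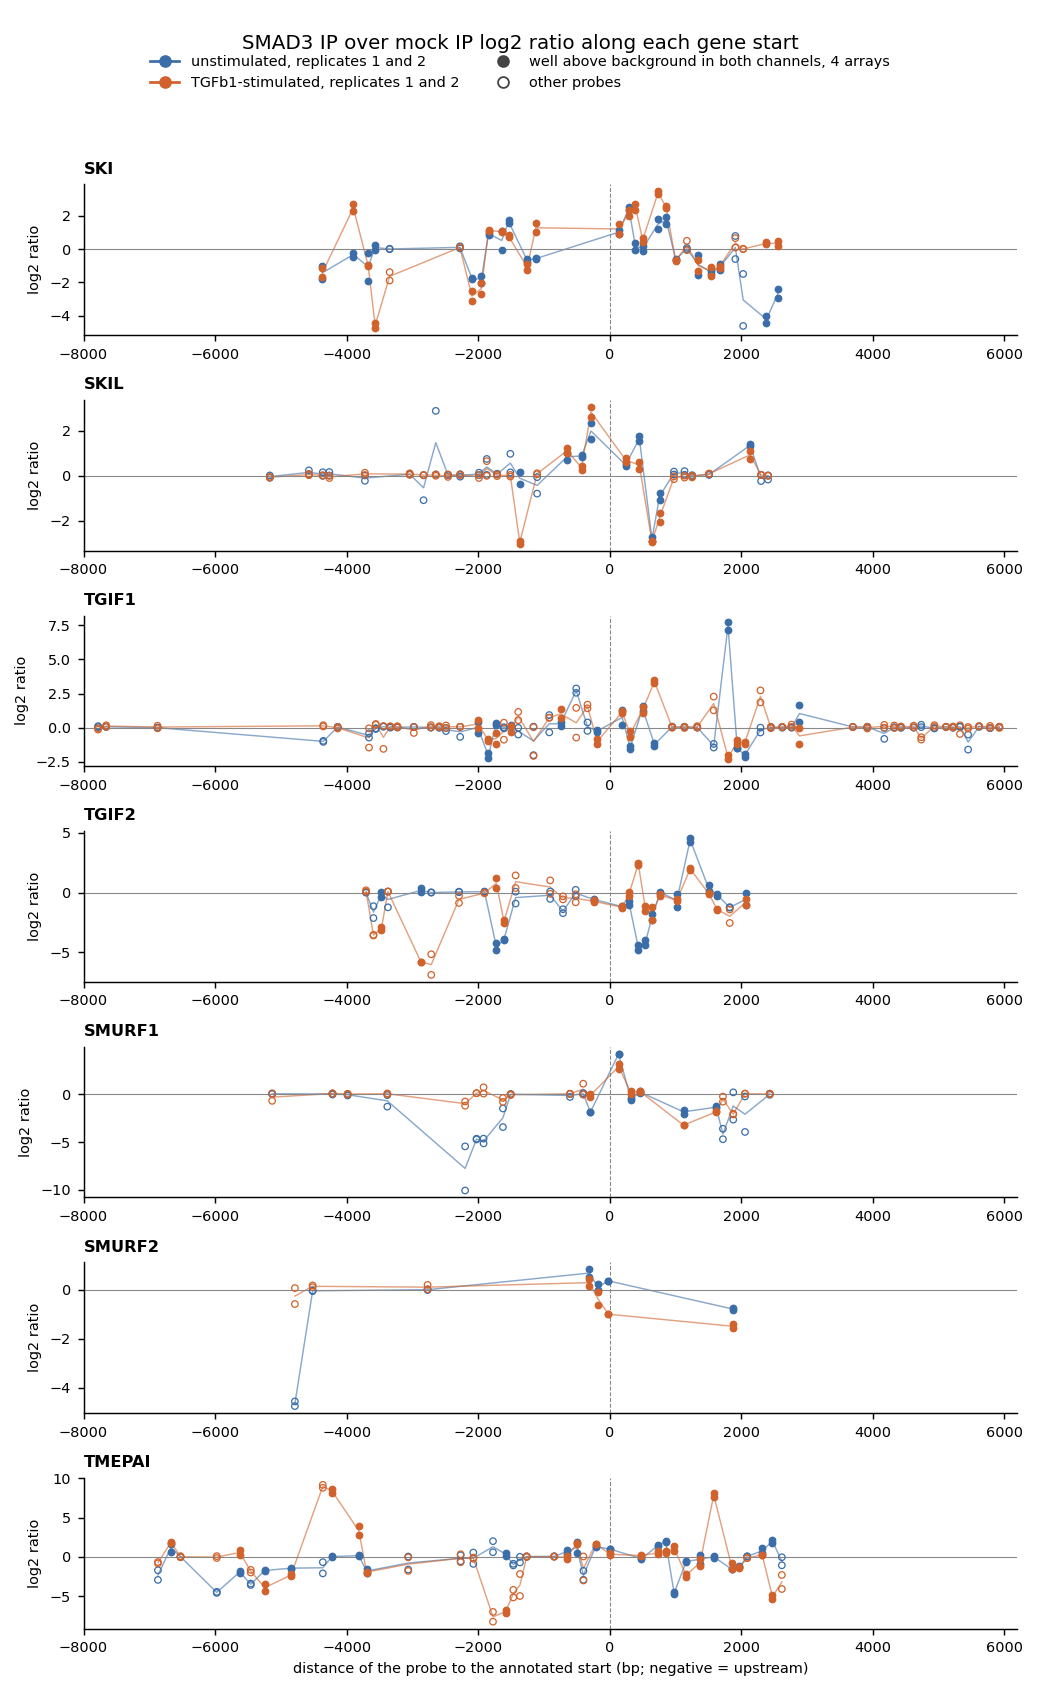
Log2 ratio of SMAD3 IP over mock IP (vertical axis, a different range in each panel) at every probe of each gene, by distance to the annotated start in bp. Points are single replicates, lines join the condition means and filled points are measured probes; replicates of a condition mostly lie close together, while short blocks such as that of SMURF1 at −2023 bp and of TMEPAI at −4221 bp differ between conditions.

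SKI, which brings histone deacetylase complexes to SMADs, had its highest ratios just inside the gene. The measured probe at 292 bp had log2 ratios of 2.37 and 2.56 in the unstimulated replicates and 2.35 and 1.98 in the stimulated ones. All 4 were above the array median, and the difference of −0.30 (SE 0.25) did not pass the test (limma, adjusted p = 0.364). The probe at 737 bp read 1.23 and 1.80 at the basal level and 3.29 and 3.48 after TGFβ1. Its ratio rose by 1.87 (SE 0.29, limma adjusted p = 0.00551), and its SMAD3 IP signal rose by 2.98 on the log2 scale (adjusted p = 0.00501). The neighbour at 862 bp read 1.504 and 1.938, then 2.44 and 2.58, without overlap, at an adjusted p of 0.0550 in limma. The probe nearest the start, at 142 bp, read 1.15 and 0.90, then 1.49 and 0.93, and its groups overlapped.

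At other SKI probes inside the gene, the ratio rose together with a lower mock IP signal. At 394 bp the ratio went from −0.04 and 0.37 to 2.38 and 2.70 (2.38, SE 0.27, limma adjusted p = 0.00222), with a mock IP change of −1.89 (adjusted p = 0.00718) and a SMAD3 IP change of 0.60 (adjusted p = 0.207). At 2386 bp it went from −4.42 and −4.01 to 0.28 and 0.41, the largest rise of the gene (4.56, SE 0.25, adjusted p = 0.000381 in limma). The mock IP there read 20581 and 21980 units of processed signal before and 826 and 794 after TGFβ1, while the SMAD3 IP read 1135 and 1913, then 1331 and 1633. The probe at 2561 bp rose by 3.01, also with a lower mock IP (−3.25).

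The largest fall of SKI lay upstream at −3565 bp, from −0.03 and 0.22 to −4.42 and −4.74 (−4.68, SE 0.25, limma adjusted p = 0.000358). The mock IP went from 169 and 184 to 5836 and 6341 units, and both stimulated replicates lay far above both unstimulated ones. In all, 6 of 23 measured SKI probes rose and 3 fell. The other rises were 2.80 at −3897 bp and 1.85 at −1121 bp, and the other falls −1.08 at −2095 bp and −0.88 at −1535 bp. The fall at −2095 bp did not pass in the fit over all probes (limma adjusted p = 0.0697).

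SKIL (SnoN), a corepressor related to SKI, had ratios above the array median around its start in both conditions, and 0 of its 9 measured probes rose. The highest was at −283 bp, with 1.62 and 2.36 in unstimulated cells and 3.07 and 2.60 after TGFβ1. The groups did not overlap, but the difference of 0.84 (SE 0.35) missed the threshold (limma, adjusted p = 0.106). The probe nearest the start, at 244 bp, read 0.43 and 0.54, then 0.81 and 0.61 (adjusted p = 0.439 in limma). The brightest SKIL probe, at −645 bp, read 124371 and 114366 units in the SMAD3 IP at the basal level and 121945 and 122382 after TGFβ1. Its ratios were 1.00 and 0.69, then 1.22 and 1.01, with an adjusted p of 0.392 in limma.

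The falls of SKIL were at 3 measured probes, and the mock IP signal had risen at each in the fit over measured probes. In the fit over all probes that rise passed at −1366 bp (limma adjusted p = 0.0240) but not at 453 bp (0.0569) or 761 bp (0.226). At −1366 bp the ratio went from −0.37 and 0.15 to −3.03 and −2.91 (−2.85, SE 0.27, limma adjusted p = 0.00133). At 453 bp it went from 1.77 and 1.53 to 0.63 and 0.30 (−1.19, adjusted p = 0.0148), and at 761 bp from −0.76 and −1.07 to −1.64 and −2.08 (−0.94, adjusted p = 0.0388), both in limma. The SMAD3 IP changes at these probes were −0.31, 0.67 and −0.00, and none passed the test. In the fit over all probes, 2 SKIL probes had a lower ratio after stimulation.

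TGIF2, a homeodomain corepressor of SMADs, had 16 measured probes, of which 4 rose and 4 fell. Its highest basal ratio was inside the gene at 1226 bp, with 4.27 and 4.57 in the unstimulated replicates and 1.88 and 2.08 after TGFβ1. The ratio fell by 2.44 on the log2 scale (SE 0.24, limma adjusted p = 0.00145) and stayed above the array median. The SMAD3 IP went from 35280 and 45840 to 6293 and 7202 units, while the mock IP read 1224 and 1312, then 1038 and 1063.

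The largest rise of TGIF2 was at 437 bp, from −4.79 and −4.36 to 2.34 and 2.46 (6.98, SE 0.26, limma adjusted p = 0.000267). The SMAD3 IP replicates of the conditions overlapped there, at 5563 and 5526 units before and 4032 and 6178 after stimulation, while the mock IP went from 103429 and 77081 to 482 and 697. The next probe, at 545 bp, rose by 2.82, with a mock IP change of −2.91. Upstream, the probes at −1722 and −1606 bp rose by 5.31 and 1.51, although the SMAD3 IP changed by −3.21 and −4.37, since the mock IP changed by −8.72 and −6.08.

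The largest fall of TGIF2, at −2867 bp, was also in the mock IP. The ratio went from 0.35 and 0.03 to −5.84 and −5.81 (−6.02, SE 0.23, limma adjusted p = 0.000270), with the mock IP at 120 and 135 units before and 11184 and 11111 after. The neighbour at −2712 bp was not well above background in the basal mock IP and at least 277-fold higher after TGFβ1 (limma over all probes, adjusted p = 0.000112). The other falls were −2.84 at −3470 bp and −1.23 at 1639 bp. The probe nearest the start, at 189 bp, read −1.25 and −1.09, then −1.31 and −1.15, and did not separate the conditions.

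TGIF1, the paralogue of TGIF2, had 14 measured probes of 58, of which 4 rose and 1 fell. The fall, at 1801 bp, was larger than that of any measured member probe, from 7.71 and 7.19 to −2.02 and −2.31 (−9.62, SE 0.29, limma adjusted p = 0.000267). It came with the SMAD3 IP, which read 514248 and 444241 units in unstimulated cells and 360 and 383 after TGFβ1, while the mock IP read 1643 and 2058, then 886 and 1184. The largest rise, at 683 bp, was in the SMAD3 IP as well, from 1202 and 1345 to 19593 and 18484 units. It took the ratio from −1.36 and −1.10 to 3.47 and 3.28 (4.60, SE 0.24, adjusted p = 0.000339 in limma). The other rises, at −1842, 314 and 2055 bp, were 1.14, 1.00 and 0.88. The measured probe nearest the reference start, at −188 bp, read −0.34 and −0.15, then −1.22 and −0.79, without overlap but short of the threshold (limma, adjusted p = 0.0622).

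SMURF1, a HECT-type ubiquitin ligase for SMADs and receptors, had the second highest basal ratio among the measured member probes right next to its start. The probe at 138 bp read 4.22 and 4.16 in unstimulated cells and 3.11 and 2.63 after TGFβ1. It was above the array median in both conditions (adjusted p = 0.000144 and 0.000274 in limma) and fell by 1.32 on the log2 scale (SE 0.26, adjusted p = 0.0125). The SMAD3 IP read 63856 and 74145, then 29939 and 30492 units, and the mock IP 2904 and 2950, then 2624 and 3176. On the other side of the start, at −291 bp, the ratio rose from −1.87 and −1.88 to 0.06 and −0.31 (1.76, SE 0.24, limma adjusted p = 0.00403), and the SMAD3 IP signal rose by 1.44. At 1125 bp the ratio changed by −1.38 (adjusted p = 0.00816, limma), and the mock IP rose by 1.58.

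The widest difference between conditions at SMURF1 lay upstream, in the mock IP. The neighbouring probes at −2197, −2023 and −1916 bp were bright in the mock IP of both unstimulated replicates. At −2023 bp the mock IP read 59884 and 57017 units, against 48 and 41 after TGFβ1, when the probe was not well above background, so that it was at least 1139-fold lower (limma over all probes, adjusted p = 0.000112). The SMAD3 IP at that probe was at least 38.6-fold lower as well, from 2806 and 3019 units (adjusted p = 8.27e-05). The ratio there was −4.65 and −4.73 at the basal level and 0.10 and 0.09 after stimulation, and at −1916 bp it was −5.14 and −4.64, then 0.05 and 0.71. These probes do not count as measured, because they were dim after stimulation.

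SMURF2, the closest relative of SMURF1, had 7 probes, of which 4 were measured, and 0 of these rose. Next to the start, at −17 bp, the ratio went from 0.37 and 0.36 to −0.9868 and −0.9996, a change of −1.36 (SE 0.21, limma adjusted p = 0.00576). The SMAD3 IP read 98064 and 118463 units before and 35534 and 43041 after, and the mock IP 50751 and 62754, then 42609 and 53602, so the SMAD3 IP replicates separated and those of the mock IP overlapped. The highest ratio of the gene, at −308 bp, was 0.53 and 0.84, then 0.14 and 0.45, without overlap but short of the threshold (limma, adjusted p = 0.254). The probe at 1872 bp changed by −0.70 (limma, adjusted p = 0.0479).

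TMEPAI (PMEPA1), an inhibitor of SMAD phosphorylation, had the largest rises of the members. These came with a large rise of the SMAD3 IP signal and a smaller rise of the mock IP signal. At −4221 bp the ratio went from 0.15 and −0.07 to 8.67 and 8.07 (8.33, SE 0.30, limma adjusted p = 0.000267). The SMAD3 IP read 256 and 214 units in unstimulated cells and 184656 and 204800 after TGFβ1. The mock IP read 155 and 152, then 274 and 475 units, a change of 1.51 (limma adjusted p = 0.00690). At 1584 bp the ratio went from 0.15 and −0.11 to 7.57 and 8.16 (7.84, SE 0.30, adjusted p = 0.000268 in limma), with the SMAD3 IP at 206 and 209, then 425461 and 425832 units. The mock IP at 1584 bp read 125 and 153, then 1352 and 930 units, a change of 3.29 (limma adjusted p = 0.00384). In the SMAD3 IP, both stimulated replicates were high and both unstimulated replicates low at each of these probes.

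The block at −4221 bp took in its neighbours. At −4361 bp, where a basal channel was not well above background, the SMAD3 IP read 150 and 48 units and then 114271 and 443173. At −3813 bp the ratio rose from 0.06 and 0.25 to 2.73 and 3.90 (3.16, SE 0.44, limma adjusted p = 0.00414). The SMAD3 IP change there was 5.66 and the mock IP change 2.30. The probe at 1584 bp stood alone, since its neighbours at 1378 and 1855 bp did not pass the test (adjusted p = 0.567 and 0.349, limma). At 982 bp the ratio rose from −4.77 and −4.43 to 1.36 and 0.78 (5.67, SE 0.30, adjusted p = 0.000362), with a SMAD3 IP change of 4.15 and a mock IP change of −1.73. The last rise, 2.48 at −5625 bp, came with lower signals in both channels, by −5.97 in the SMAD3 IP and −8.65 in the mock IP.

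TMEPAI also had the largest falls of the members, and these came with the mock IP. At −1582 bp the ratio went from 0.17 and 0.54 to −7.16 and −6.78 (−7.32, SE 0.27, limma adjusted p = 0.000268), with the mock IP at 133 and 158, then 54846 and 49311 units. Its neighbour at −1773 bp was at least 1884-fold higher in the mock IP after TGFβ1 (adjusted p = 0.000112, limma over all probes). At 2477 bp the ratio fell from 2.20 and 1.82 to −4.83 and −5.30, with a mock IP change of 6.97.

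Next to the reference start of TMEPAI the ratios were smaller and closer between conditions. This does not hold for its further annotated start at −1510 bp, which lies near the fall at −1582 bp. The probe at 5 bp read 1.00 and 0.98, then 0.22 and 0.47 (limma, adjusted p = 0.0662), and that at −211 bp read 1.27 and 1.36, then 1.67 and 1.65 (adjusted p = 0.233). The probes at 742 and 852 bp changed by −0.93 and −1.29 and stayed above the array median, while those at −5244, −4845 and 1166 bp changed by −2.18, −0.88 and −1.76. All of these 5 changes passed the test.

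**Figure D2:**
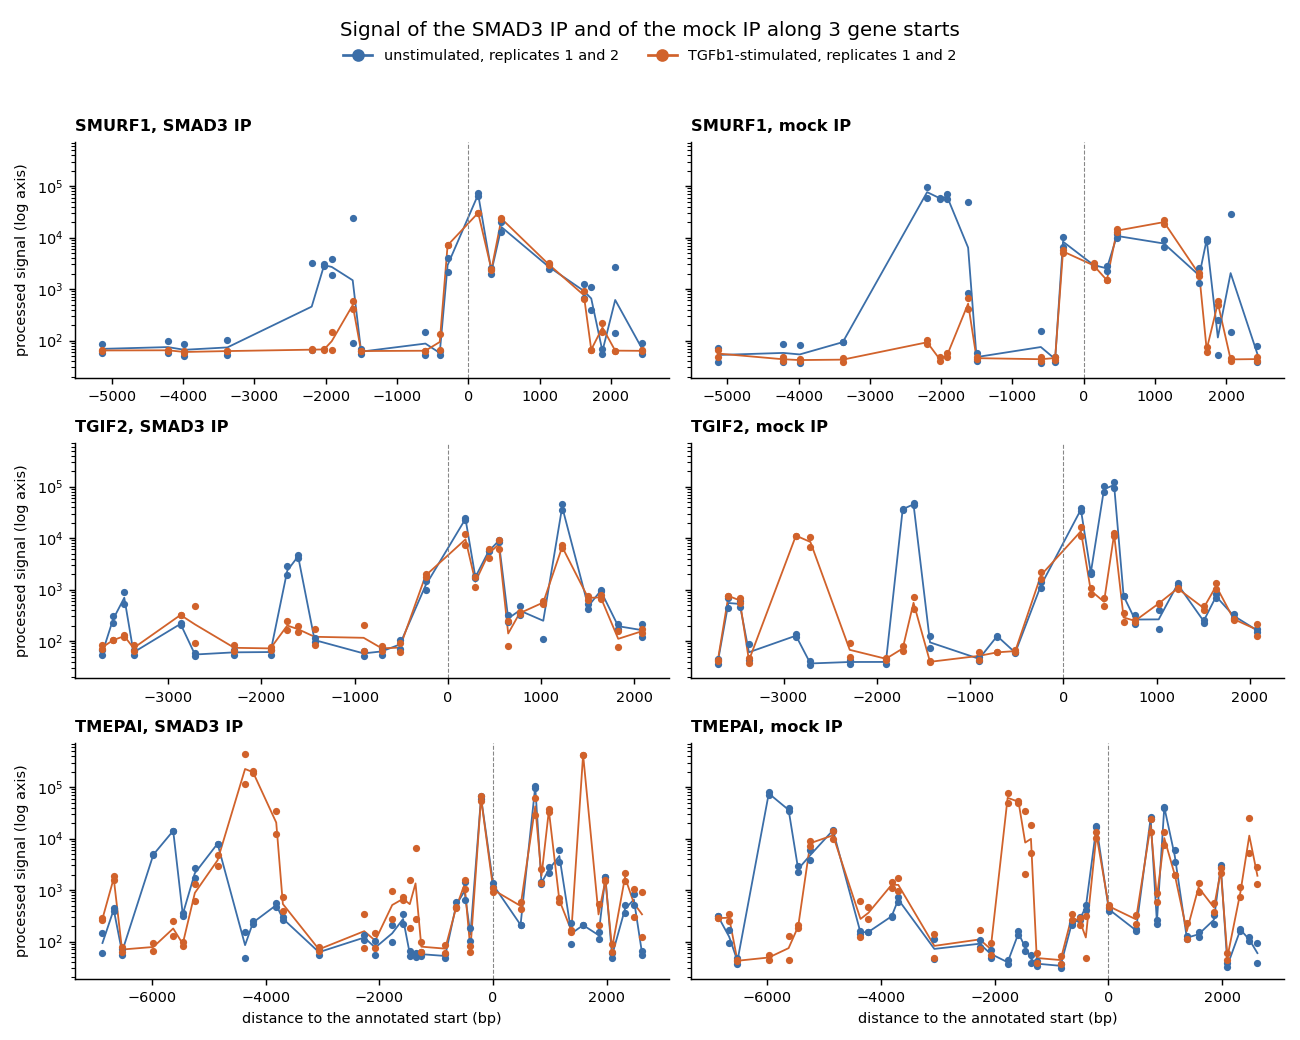
Processed signal (log axis) of the SMAD3 IP and of the mock IP at every probe of SMURF1, TGIF2 and TMEPAI, by distance to the annotated start in bp, with points for single replicates. The SMURF1 mock IP at −2023 bp is bright at the basal level alone, and the TMEPAI SMAD3 IP at −4221 and 1584 bp is bright after TGFβ1 alone.

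Setting the channels side by side, the SMAD3 IP signal was higher after stimulation at 14 of 152 member probes (5.4% of all probes were called) and lower at 11 (5.43%). The mock IP signal was higher at 15 (8.96% of all probes) and lower at 19 (8.25%), by limma in each case. Without either unstimulated replicate, the SMAD3 IP calls fell to 0, as they did over all 472988 probes (32 higher and 19 lower member probes at an unadjusted p under 0.05 without replicate 1, 29 and 26 without replicate 2). Of the measured member probes whose ratio changed, the mock IP moved more than the SMAD3 IP at 9 of the 16 that rose and at 13 of the 21 that fell. By gene, this held for 4 of 6 rises of SKI, 4 of 4 of TGIF2, 1 of 5 of TMEPAI and 0 of 1 of SMURF1. Among falls it held for 3 of 3 of SKI, 3 of 3 of SKIL, 2 of 4 of TGIF2, 1 of 2 of SMURF1, 0 of 2 of SMURF2 and 4 of 7 of TMEPAI. The matching share over all measured probes whose ratio changed was not computed. A change of at least 2 on the log2 scale was seen at 20 of 81 measured member probes (24.7%), and the mock IP moved more at 14 of these (70.0%). Over all measured probes the shares were 27.6% and 63.1%. The part of the mock IP in the changes of the ratio was not tested further.

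**Figure D3:**
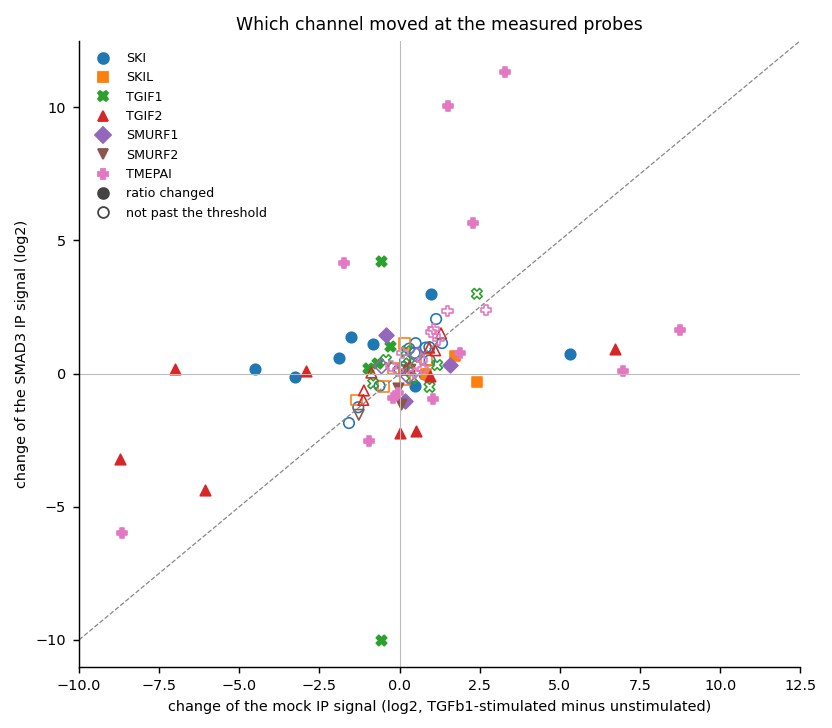
Change of the SMAD3 IP signal and of the mock IP signal (log2, TGFβ1-stimulated minus unstimulated, each channel scaled to the 75th percentile of its array) at the 95 measured probes of the members and TGIF1. Filled symbols passed the test for a change of the ratio; TMEPAI at 8.76 and TGIF2 at −8.72 are the extremes of the mock IP, and TMEPAI at 11.34 and TGIF1 at −9.99 those of the SMAD3 IP.

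The large changes lay mostly away from the starts. Counted with TGIF1 and by the distance to the transcript named first for a probe, 24 probes under 500 bp were measured, with a median absolute change of 0.68 on the log2 scale, and 3 of them changed by at least 2. From 500 to 2000 bp, 8 of 51 measured probes did, with a median of 0.70. Beyond 2000 bp it was 11 of 20, with a median of 2.33. Over all measured probes the medians were 0.97, 1.11 and 1.16, and the shares that changed by at least 2 were 23.6%, 28.5% and 30.4%.

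Within 500 bp of the start, the mean log2 ratio over measured probes was 1.22 ± 0.08 (SD, n = 2) for SKI at the basal level and 1.97 ± 0.14 after TGFβ1. It was 1.25 ± 0.09 and 1.09 ± 0.15 for SKIL, 0.49 ± 0.02 and 0.79 ± 0.20 for SMURF1, and 0.70 ± 0.05 and 0.72 ± 0.02 for TMEPAI. For SMURF2 it was 0.39 ± 0.13 and −0.35 ± 0.20, and for TGIF2 −1.79 ± 0.18 and 0.08 ± 0.06. These means rest on 3 or 4 probes per gene and were not tested. For TMEPAI they count from the reference start and leave out the probe at −1582 bp, near its further start at −1510 bp.

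A probe was called bright where both replicates of a library exceeded 1000 units, a limit set after the values were seen. In each of the 4 libraries (SMAD3 IP and mock IP, with and without TGFβ1), 32.2% to 33.6% of member probes were bright, against 16.7% to 19.0% of all probes. Of the 78 member probes bright in any library, 30 were bright in all 4 (38.5%, against 33.6% over all probes) and 26 in 1 alone (33.3%, against 33.0%). The changes of 118 pairs of member or TGIF1 probes at most 200 bp apart correlated at r = 0.51, against 0.42 over all 285721 such pairs. With measured probes alone it was 0.11 over 41 pairs, against 0.34. These pairs share arrays and DNA fragments.

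Averaged over all probes of a gene, the ratio rose for 2 of the 6 members, SMURF1 and SKI (20.8% of 18109 genes were called higher), and fell for 0 (28.6% lower), by limma over genes. At an unadjusted p under 0.05, 1 member was lower. With the replicate number as a block, 3 members rose (23.9% of genes) and 0 fell (32.3%). SMURF1 had mean log2 ratios of −1.40 and −1.40 at the basal level and −0.17 and −0.34 after TGFβ1, a change of 1.15 (SE 0.10, limma adjusted p = 0.000155) that exceeded 97.3% of genes. The SMURF1 mean includes the probes at −2197, −2023, −1916 and 1724 bp, whose mock IP was bright at the basal level and dim after TGFβ1. At −2023 bp the SMAD3 IP was lower after TGFβ1 as well. The part of these probes in the change of the mean was not tested. SKI went from −0.40 and −0.40 to 0.13 and −0.02 (0.45, SE 0.09, adjusted p = 0.00699 in limma), above 86.1% of genes. With the median over probes in place of the mean, SMURF1 changed by 0.79 (adjusted p = 0.526) and SKI by 0.52 (adjusted p = 0.341) in limma, and 1.19% of all genes were called higher.

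SKIL went from 0.20 and 0.16 to −0.02 and −0.04 (−0.21, limma adjusted p = 0.0890), without overlap. SMURF2 changed by 0.25 (adjusted p = 0.0556), TMEPAI by 0.15 (adjusted p = 0.217), TGIF2 by −0.07 (adjusted p = 0.589) and TGIF1 by 0.07 (adjusted p = 0.588), all in limma. The median gene changed by −0.05.

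The gene means depended on which probes entered. With measured probes alone, SMURF1 changed by −0.11 (limma adjusted p = 0.574) and SMURF2 by −0.73 (adjusted p = 0.00342), while SKI changed by 0.47 (adjusted p = 0.0314) and SKIL by −0.52 (adjusted p = 0.0188). That made 1 member higher (19.5% of 13697 genes) and 2 lower (36.6%). Over probes in the window that reached 2000 bp upstream and 800 bp into the gene, TGIF2 changed by 1.41 (adjusted p = 0.000100) and TMEPAI by −1.48 (adjusted p = 8.89e-05) in limma. That window holds the probes of TGIF2 at −1722 and 437 bp and of TMEPAI at −1582 bp, and leaves out those of TMEPAI at −4221 and 1584 bp.

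**Figure D4:**
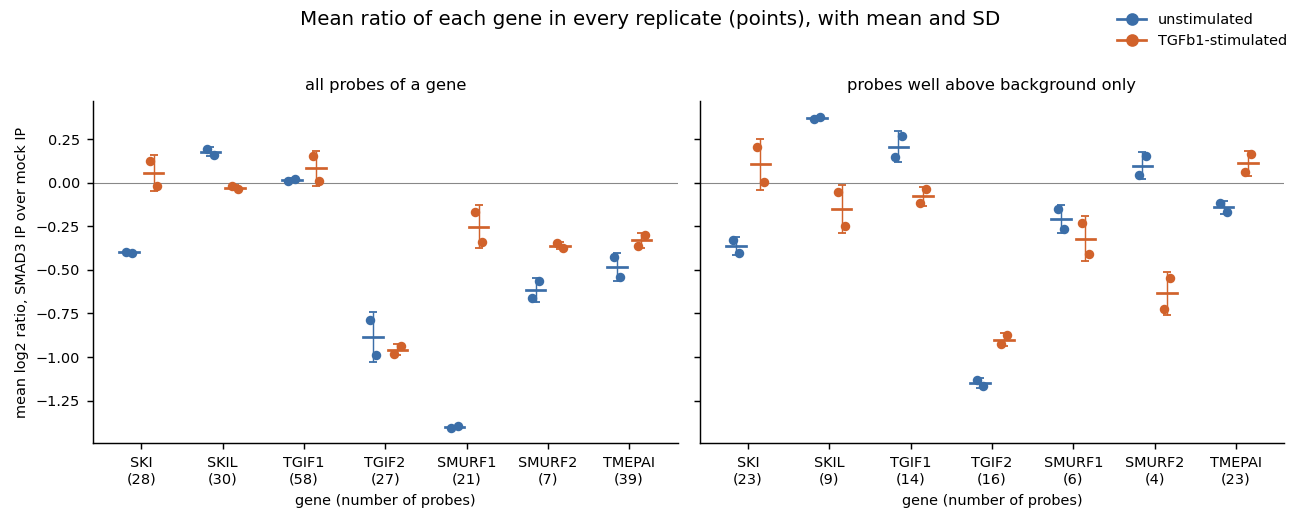
Mean log2 ratio of each gene in every replicate (points), with the mean and SD of each condition (n = 2), over all probes of the gene and over measured probes. SMURF1 lies at −1.40 at the basal level over all probes and at −0.21 over measured probes, where its conditions overlap.

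Among 16912 genes with at least 10 probes, the 2 whose 4 replicate means lay nearest to those of SKI, by Euclidean distance, were CTBP1 at 0.03, itself a corepressor, and ERP29 at 0.04. Those nearest to SMURF1 were SH3GLB2 at 0.05 and TNNT1 at 0.11.

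Other genes of the same machinery were counted by their gene means. Of 16 further corepressors and their partners, 14 were found on the arrays, and 5 rose (35.7%, against 20.8% of all genes) and 3 fell (21.4%, against 28.6%) by limma. Over measured probes it was 3 and 4 of 11, against 19.5% and 36.6% of all genes, with a median change of −0.07, against −0.20 over all genes. The rises were ZEB1 (0.54), CTBP1 (0.46), EVI1 (0.67), HDAC1 (0.79) and MEN1 (0.35), and the falls CTBP2 (−0.88), NCOR1 (−0.86) and TOB1 (−1.15). Of 16 ubiquitin ligases and deubiquitinases of SMADs and receptors, 3 rose (18.8%, against 20.8%) and 7 fell (43.8%, against 28.6%). Over measured probes it was 1 and 9 of 14, against 19.5% and 36.6% of all genes. NEDD4L, a HECT-type ligase like SMURF2, changed by 1.09 over all its probes and by −0.43 over measured probes, both past the test. ITCH (−1.79) and RNF111 (−1.14), the latter a ligase of SKI and SKIL, had the largest falls. The median change was 0.11 in the first list and −0.18 in the second, against −0.05 over all genes.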

How the data were processed

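SMAD3 ChIP-on-chip was analysed for A549 cells on Agilent promoter arrays, with groups and replicate numbers from the labels. The authors deposited an intensity for every spot and channel, the processed signal of Agilent Feature Extraction 9.5.1.1 (version from the submitters' processing notes). They also deposited a table of log2 ratios, which matched the log2 ratio of these intensities within 3.13e-06, as SMAD3 IP over mock IP. The array files and labels name no genome build, and the study names hg17 for its genomic analyses. Whether the array annotation uses it was not checked, so no array coordinates are given.

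Control spots (12568), probes without a position (19) and outlier probes (1404) were removed. Log2 ratios were centred by subtracting the array median, with no loess or quantile step, since many probes may carry signal. Each channel alone was scaled to the 75th percentile of its array. Changes were tested with limma 3.58.1 in R 4.3.3 (lmFit and eBayes), over all probes, over measured probes and over genes with at least 4 probes, with Benjamini-Hochberg adjustment at 0.05. A value given as at least N-fold sets the bright group against, per array, the higher of the lowest signal well above background and the dim probe's own signal. The code was tested on simulated data. Python 3.11.15, numpy 2.4.6, pandas 2.3.3 and matplotlib 3.10.9 were used for tables and plots.

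The members, lists and motifs were chosen with earlier results of these data known. The probes named are, among the measured probes of each gene, the one nearest the start, the highest in each condition, the largest rise and fall, and those past the threshold. Others named were chosen after their values were seen. The study describes more array replicates and a shorter stimulation than the labels, and 2 replicates per condition were analysed here. The replicate numbers were not taken to pair the samples, because the differences between replicates 1 and 2 of the conditions correlated at 0.00882 on slide 1 and 0.0235 on slide 2. Alternatives were other background, normalization, centring and scaling choices, filters on dim probes, a replicate block, a window around the start, medians over probes and leaving out each replicate.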

Additional observations from a re-analysis of the deposited data

How the results depend on the processing

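With normexp, 1 member probe was higher (0.607% of all probes) and 7 lower (0.936%) than the array median in unstimulated cells. After stimulation these counts were 9 (2.42%) and 9 (4.24%). Between conditions 9 probes rose (1.71%) and 3 fell (2.83%), and 4 member genes rose (5.94% of genes). The gene mean changes of SKIL (0.040), SMURF2 (−0.30), TGIF1 (−0.051) and TGIF2 (0.21) then reversed. With loess, 37 member probes were higher than the array median after stimulation, as were 58940 of all 472988 probes. There 4 member genes rose (27.3% of genes) and TGIF2 changed by 0.026. Centred on probes well above background, 41 member probes were higher at the basal level (32.6% of all probes), and 56 were higher after stimulation (36.9%). Without centring these were 45 (34.5%) and 69 (46.7%), 4 member genes rose (29.7% of genes) and TGIF2 changed by 0.062. With measured probes alone, 1 member gene rose (19.5% of genes) and 2 fell (36.6%). SMURF1 (−0.11), SMURF2 (−0.73), TGIF1 (−0.28) and TGIF2 (0.25) then reversed. In the window around the start 3 of 5 member genes rose (20.2% of genes) and 1 fell (27.6%), while SMURF2 had too few probes to be tested. There TGIF1 (−0.0020), TGIF2 (1.41) and TMEPAI (−1.48) reversed. With the median over probes 0 genes rose in limma (1.19% of genes), and 0 at an unadjusted p under 0.05. SKI (0.52) and SMURF1 (0.79) then no longer passed, and SMURF2 (−0.011) and TMEPAI (−0.040) reversed. With channels scaled to the array median, the SMAD3 IP was higher at 6 probes (2.7% of all probes). With probes well above background in the mock IP alone, that channel was higher at 25 of 94 (25.6% of all such probes). The cause of these differences was not tested.

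Leaving out each replicate gave 7 to 15 probes higher and 22 to 32 lower in unstimulated cells, 15 to 19 higher and 25 to 29 lower in stimulated cells, and 11 to 18 that rose and 7 to 14 that fell. The lowest counts came without an unstimulated replicate for the basal level and the change (11 rises without replicate 2, 7 falls without replicate 1). Without either unstimulated replicate the SMAD3 IP was higher at 0 and lower at 0 member probes in limma, and at 0 of all probes (32 and 19 at an unadjusted p under 0.05 without replicate 1, 29 and 26 without replicate 2), and at up to 12 and 13 without a stimulated one. For each of the ratio counts, the share called over all probes was also below that of the main setting in every one of these fits. Calls of the ratio thus dropped over the whole array, not at the members alone. The TGIF1 change ran from −0.0036 (without stimulated replicate 1) to 0.14, and that of TGIF2 from −0.17 to 0.028 (without unstimulated replicate 1).

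With a replicate block, 24 member probes rose (8.55% of all probes) and 16 fell (10%), and 3 member genes rose (23.9%) and 0 fell (32.3%; 1 at an unadjusted p under 0.05). SMURF2 passed the test under the block (0.25, limma adjusted p = 0.0415). Of the gene mean changes under all alternatives, 70 kept direction and side of the threshold and 17 reversed. The test was newly passed 12 times, 4 of them with a reversed direction, and no longer passed 3 times, 1 of them reversed. Probes that are not well above background in either channel limit what the gene means can show.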
